A study of Mus musculus with 9 samples.

Results

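The mitosis and spindle genes are 40 genes whose products carry a cell through chromosome condensation, spindle assembly, chromosome separation and division of the cytoplasm. They were picked by symbol and role, with earlier results of these data known. The array annotation used here named a probe set for 39 of the 40. The remaining gene, Ccnb1, which encodes cyclin B1, had no probe set under its symbol there and was not analysed here. All 39 passed the filter on dim signals and stood among 12936 genes tested, of 18193 genes that a probe set names alone.

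RNA was measured in organoids of mouse small intestine, which are closed epithelial structures grown in culture from crypt cells. The array was the Affymetrix Mouse Genome 430 2.0, which reads each transcript with several short probes near its 3 prime end, together called a probe set. There were 9 arrays in 3 groups of 3. The ligand group received Tgfb1 at 0.04 ng/mL, the inhibitor group received a TgfbR1/2 inhibitor at 20 uM, and the untreated group received neither. Treatment began on day 1 and lasted 5 days of a 6-day culture. The labels name neither the inhibitor compound, a vehicle nor the mouse strain, and do not say whether replicates were separate cultures. The p-values below thus cover only the variation among these arrays, part or all of which may be technical.

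Dividing cells make most of these transcripts in a burst late in the cell cycle. Cyclin A and cyclin B activate Cdk1, and Aurora and Polo kinases then help to build the spindle. Kinetochores tie chromosomes to the spindle, the checkpoint holds the cell until all are attached, and the anaphase-promoting complex then releases it. In the intestine, division is confined to the crypt, where stem cells and their fast-dividing progeny lie, and differentiated villus cells do not divide. Tgfb1 is known as a cytostatic signal for many epithelial cells. In whole cultures, fewer dividing cells and less of a transcript per dividing cell cannot be told apart.

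Many of these genes share promoter elements, so the promoters of the members that changed most with the inhibitor are shown before the values. The elements searched were TTTGAA, the core of the cell cycle genes homology region bound by the DREAM and MuvB complexes, and CCAAT, the box bound by NF-Y. Both strands were read. Each sequence runs 5′ to 3′ along the gene's own strand, from 150 bases before the annotated start to 30 bases after it. The sequences are RefSeq's, on the mouse build GRCm38.p6, and capitals mark a TTTGAA or a CCAAT, or their reverse complements TTCAAA and ATTGG. Kif11, Ttk, Nuf2 and Bub1b had the largest falls with the inhibitor among members with a promoter in the table, and Kif22 was not called in its brightest probe set.
Kif11, chr19:37376232-37376411, plus strand: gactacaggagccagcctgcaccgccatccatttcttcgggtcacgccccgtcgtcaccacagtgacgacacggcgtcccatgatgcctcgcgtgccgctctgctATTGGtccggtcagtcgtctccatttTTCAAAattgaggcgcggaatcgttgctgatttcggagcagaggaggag
Ttk, chr9:83834539-83834718, plus strand: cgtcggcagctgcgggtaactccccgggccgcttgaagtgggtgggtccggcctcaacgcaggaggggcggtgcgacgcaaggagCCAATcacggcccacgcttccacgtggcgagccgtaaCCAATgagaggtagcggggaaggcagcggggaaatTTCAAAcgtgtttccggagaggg
Nuf2, chr1:169531435-169531614, minus strand: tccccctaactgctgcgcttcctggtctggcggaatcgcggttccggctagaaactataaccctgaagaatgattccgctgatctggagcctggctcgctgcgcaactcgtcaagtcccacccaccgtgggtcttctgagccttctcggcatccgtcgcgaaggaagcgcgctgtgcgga
Bub1b, chr2:118598061-118598240, plus strand: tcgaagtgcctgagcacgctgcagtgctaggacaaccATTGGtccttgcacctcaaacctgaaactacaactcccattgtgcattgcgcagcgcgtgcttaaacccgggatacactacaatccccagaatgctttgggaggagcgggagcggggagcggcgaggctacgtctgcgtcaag
Kif22, chr7:127042391-127042570, minus strand: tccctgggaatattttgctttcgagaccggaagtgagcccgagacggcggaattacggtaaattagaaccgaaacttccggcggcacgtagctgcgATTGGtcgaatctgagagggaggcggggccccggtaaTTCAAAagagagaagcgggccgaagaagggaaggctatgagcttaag
Ccnb2, Cdk1 and Hmmr were added after their values were seen, because their elements are repeated.
Ccnb2, chr9:70421525-70421704, minus strand: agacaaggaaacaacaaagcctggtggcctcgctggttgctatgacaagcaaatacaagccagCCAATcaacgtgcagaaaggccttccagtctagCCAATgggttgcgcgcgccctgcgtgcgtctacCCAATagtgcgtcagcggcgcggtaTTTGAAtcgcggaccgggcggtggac
Cdk1, chr10:69352883-69353062, minus strand: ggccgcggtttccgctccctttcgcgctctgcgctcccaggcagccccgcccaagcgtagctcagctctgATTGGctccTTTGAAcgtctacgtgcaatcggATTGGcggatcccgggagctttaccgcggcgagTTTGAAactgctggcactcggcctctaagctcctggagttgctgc
Hmmr, chr11:40733408-40733587, minus strand: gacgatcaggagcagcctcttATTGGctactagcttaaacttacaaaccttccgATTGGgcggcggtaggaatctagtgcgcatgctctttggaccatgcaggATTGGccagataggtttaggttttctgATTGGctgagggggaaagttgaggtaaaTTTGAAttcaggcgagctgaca

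The Kif11 stretch held 1 element of each kind, with TTCAAA close to the start. Ccnb2 held 3 CCAAT boxes and 1 TTTGAA, and Cdk1 held 2 of each. The Nuf2 stretch held neither. In Bub1b the TTTGAA lay 41 to 46 bases after the start, beyond the stretch shown. The Kif22 stretch held both elements. Hmmr held 4 ATTGG and 1 TTTGAA.

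Of the 40 members, 34 had a promoter in the RefSeq table, read from 250 bases before to 50 bases after the start. TTTGAA stood in 27 of the 34, or 79.4%, against 14.6% of the 10462 tested genes with a promoter there. Among all 27025 genes with a promoter the share was 20.2%. It lay within 50 bases of the start in 25 members, 73.5%, against 3.91% of the tested genes. CCAAT stood in 28 members, 82.4%, against 42.6%, and both elements in 24, 70.6%, against 5.75%. A list of other mitosis genes had TTTGAA in 37 of 83 promoters, 44.6%. A list of DNA replication genes, transcribed earlier in the cycle, had it in 5 of 36, 13.9%. CCAAT was also frequent in both lists, in 48 of the 83 promoters, 57.8%, and in 23 of the 36, 63.9%. These are matches of letters and were not tested as sites of binding.

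The arrays had been scaled to 1 trimmed mean, and their median signals ran between 46.1 and 57.9. Changes are given as differences of log2(signal + 16), so the change of a dim gene is understated. Each is followed by its standard error or by the p-value of limma's moderated test, adjusted by Benjamini and Hochberg over the 12936 genes. A gene is called where that adjusted p is under 0.05. Signals of different genes are not set against each other, since probes differ. The median SD within groups was 0.1 on the log2 scale over the members and 0.13 over all tested genes. The lowest member signal on any array was 69.9, for Ndc80, which is above the filter level of every array.

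With the inhibitor, 37 of the 39 genes fell, none was called higher, and Cdc25c and Kif22 passed in neither direction. No member was higher at an unadjusted p under 0.05 either, or under any of 21 alternative settings. Among all tested genes 23.9% were called lower and 21% higher in the same comparison, 44.9% in either direction. The members' median change was -0.68, between -1.07 and -0.16, against -0.01 over all genes. In 38 members all 3 inhibitor arrays lay below all 3 untreated arrays, a pattern seen in 29.3% of all tested genes, and Kif22 was the exception. Each inhibitor array showed the shift by itself. The medians of the members relative to the untreated mean were -0.69, -0.72 and -0.65 on the inhibitor arrays, against -0.05, 0.03 and 0.02 on the untreated arrays.

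With the ligand, 8 members fell, 1 rose and 30 were not called. Among all tested genes 9.28% were called lower and 14.7% higher, 24% in either direction. The members' median was -0.01, between -0.39 and 0.32, against 0.05 over all genes. All 3 ligand arrays lay above all untreated arrays in 6 members, 15.4%, against 24.2% of all tested genes. All 3 lay below them in 12 members, 30.8%, against 14.4%. The genes that fell were Birc5, Hmmr, Aurka, Nek2, Cdc25c, Cenpa, Ccnb2 and Kif11, and the gene that rose was Cenpf. At an unadjusted p under 0.05 there were 11 lower and 2 higher. The count of lower members was 6 without any 1 inhibitor array. It was 4, 3 and 5 without ligand replicate 1, 2 or 3, and 3, 5 and 3 without untreated replicate 1, 2 or 3. Calls held under all 21 alternatives for 2 of the 9, Birc5 and Hmmr. Inhibitor and ligand groups were set against the same untreated arrays, so their comparisons are not independent of each other.

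Set against each other, the ligand group exceeded the inhibitor group in 35 of 39 members. The median difference was 0.64, between -0.15 and 1.11, against 0.07 over all genes, of which 32.4% were called higher, 22.9% lower and 55.3% in either direction. No member was called lower, and none was lower at an unadjusted p under 0.05. Median centring and quantile normalization each gave 1 lower call. The 4 members not called were Cdc25c, Hmmr, Kif22 and Cenpe. Centring each array on its median moved the median of all genes to -0.06 for ligand against untreated and to -0.09 for ligand against inhibitor. It put the members' medians at -0.12 and 0.48. The share of higher genes among all called genes was 36.6% under that centring, against 61.3% as deposited, for ligand against untreated. For ligand against inhibitor it was 41.8%, against 58.6% as deposited.

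**Figure D1:**
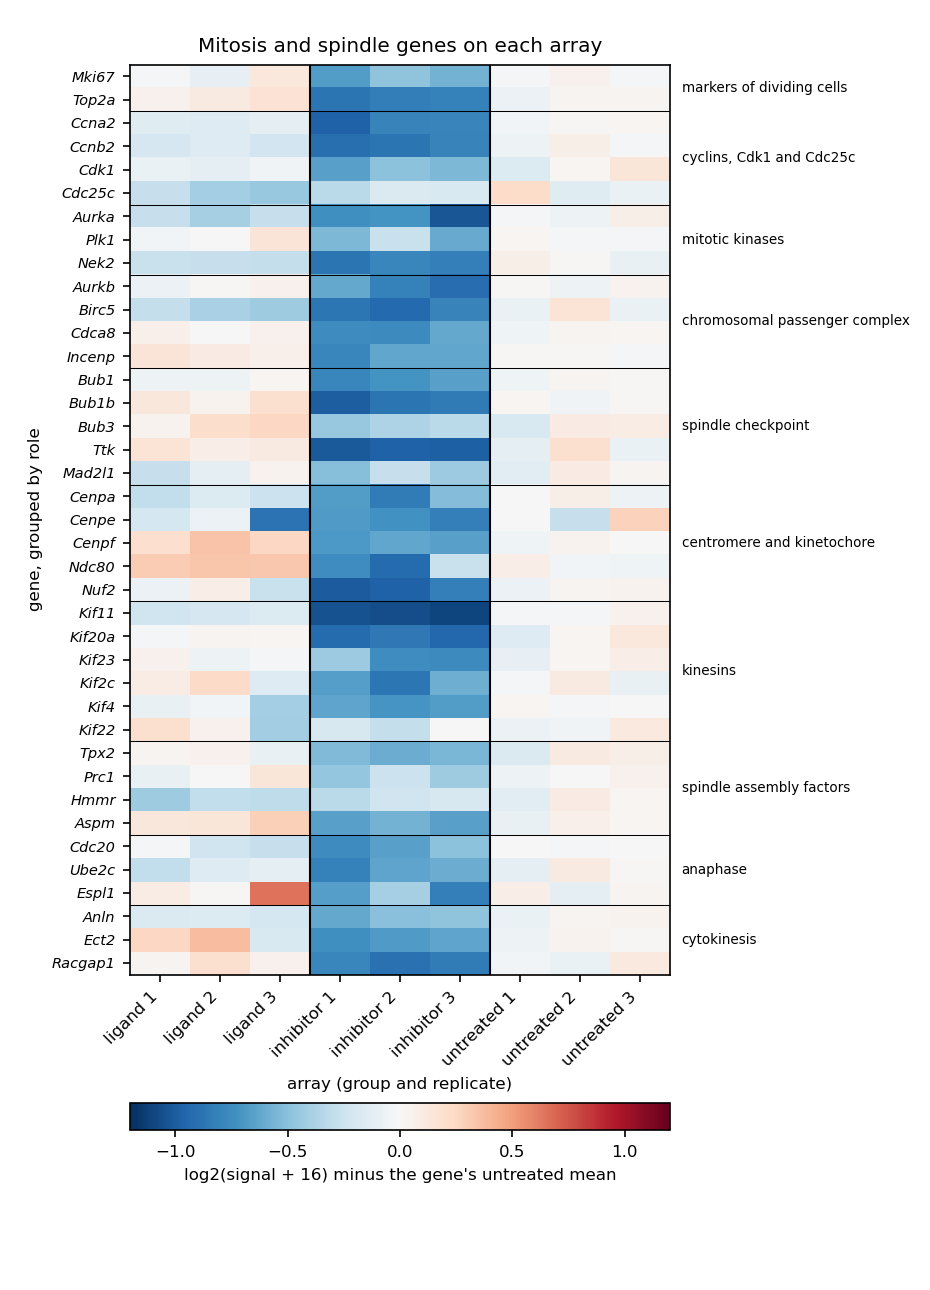
Heat map of the 39 measured mitosis and spindle genes (rows, ordered by role) over the 9 arrays (columns, ligand, inhibitor and untreated). Colour gives the log2(signal + 16) of an array minus the mean of the 3 untreated arrays. The 3 inhibitor columns are lower than the untreated mean in all 39 genes, while 21 to 23 genes lie below it on each ligand array.

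**Figure D2:**
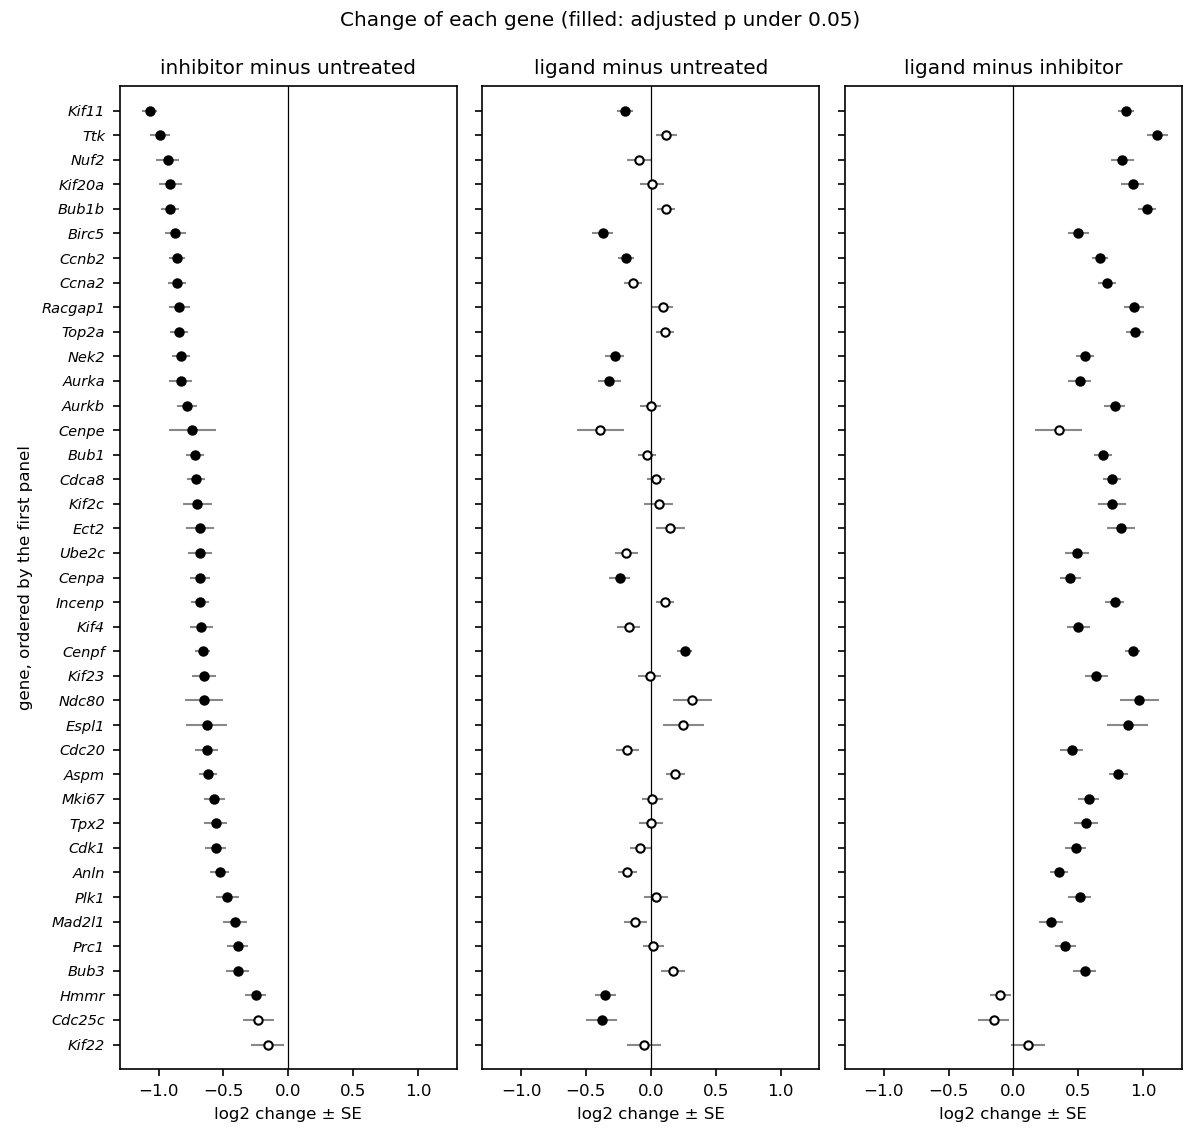
Log2 change with its standard error for each of the 39 genes in the 3 comparisons (panels), with genes ordered by the change with the inhibitor. Filled points passed the adjusted p of 0.05 and open points did not. In inhibitor against untreated all 39 estimates are below 0 and 37 are filled, and in ligand against untreated 9 are filled.

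Mki67 and Top2a mark dividing cells. Mki67 encodes the Ki-67 protein that coats mitotic chromosomes, and Top2a the topoisomerase that untangles sister DNA. Mki67 signals were 3640, 3438 and 4025 with the ligand, 2310, 2619 and 2475 with the inhibitor, and 3614, 3802 and 3618 without treatment. The inhibitor arrays lay apart from the other 6, and ligand and untreated arrays overlapped. Its change was -0.57 ± 0.08 (SE, adjusted p = 4.54e-05) with the inhibitor and 0.01 ± 0.08 (adjusted p = 0.963) with the ligand. Top2a signals were 4017, 4160 and 4355 with the ligand, 2106, 2173 and 2205 with the inhibitor, and 3693, 3962 and 3964 without treatment. The inhibitor mean was 55.8% of the untreated mean, a change of -0.84 ± 0.07 (adjusted p = 5.68e-07). All ligand arrays exceeded all untreated arrays for Top2a, but the difference of 0.11 ± 0.07 was not called (adjusted p = 0.264).

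The cyclins and Cdk1 drive entry into mitosis, and Cdc25c is the phosphatase that removes the inhibitory phosphates from Cdk1. Ccna2, cyclin A2, had signals of 2555, 2538 and 2605 with the ligand, 1430, 1607 and 1625 with the inhibitor, and 2750, 2856 and 2860 without treatment. It fell by 0.86 ± 0.07 with the inhibitor (adjusted p = 5.63e-07). Its ligand arrays were all below the untreated ones, by a difference of -0.14 that was not called (adjusted p = 0.168). Ccnb2, cyclin B2, had signals of 2170, 2232 and 2131 with the ligand, 1324, 1352 and 1425 with the inhibitor, and 2393, 2628 and 2469 without treatment. It fell by 0.86 ± 0.06 with the inhibitor (adjusted p = 3.86e-07) and by 0.19 ± 0.06 with the ligand (adjusted p = 0.0432). The ligand call was lost in 14 of the 21 alternatives, among them the omission of any 1 of the 9 arrays.

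Cdk1, the kinase itself, had signals of 2520, 2454 and 2589 with the ligand, 1692, 1890 and 1833 with the inhibitor, and 2379, 2715 and 2944 without treatment. Its inhibitor mean was 67.4% of the untreated mean (log2 change -0.56 ± 0.08, adjusted p = 8.97e-05). Ligand and untreated arrays overlapped. Cdc25c stood out among these 4 genes in its brightest probe set. Its signals were 133, 121 and 116 with the ligand, 129, 145 and 143 with the inhibitor, and 195, 148 and 156 without treatment. All treated arrays lay below the untreated ones. The ligand difference of -0.38 ± 0.12 was called (adjusted p = 0.0391) and the inhibitor difference of -0.23 ± 0.12 was not (adjusted p = 0.152). Ligand and inhibitor did not separate for this gene, at -0.15 (adjusted p = 0.319). The ligand call was lost in 11 of the 21 alternatives. Among omissions of 1 array it held only without inhibitor replicate 1 or untreated replicate 2, and without untreated replicate 1, the highest array, the change was -0.27 (adjusted p = 0.171). Averaging the probe sets of Cdc25c gave an inhibitor change of -0.39, which was called (adjusted p = 0.0135). The other set by itself changed by -0.55 with the inhibitor and by -0.29 with the ligand (adjusted p = 0.00766 and 0.184 over all probe sets).

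Aurka and Plk1 encode Aurora A and Polo-like kinase 1, which mature the spindle poles, and Nek2 encodes a kinase that splits the centrosomes. Aurka signals were 827, 755 and 828 with the ligand, 597, 603 and 483 with the inhibitor, and 993, 963 and 1056 without treatment. The 3 groups did not overlap, and the ligand group lay between the others. The change was -0.83 ± 0.09 with the inhibitor (adjusted p = 7.42e-06) and -0.32 ± 0.09 with the ligand (adjusted p = 0.0197). The ligand call for Aurka was lost without ligand replicate 2, untreated replicate 1 or untreated replicate 3, with adjusted p-values of 0.07, 0.0504 and 0.0687. Nek2 also had 3 separate groups, and its ligand change of -0.28 ± 0.07 was called (adjusted p = 0.00781), though not with its probe sets averaged (-0.18, adjusted p = 0.141). Plk1 signals were 956, 974 and 1095 with the ligand, 668, 810 and 639 with the inhibitor, and 998, 967 and 972 without treatment. It fell with the inhibitor by 0.47 ± 0.09 (adjusted p = 0.000779), while its ligand arrays overlapped the untreated ones.

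The chromosomal passenger complex, made of Aurora B, survivin, borealin and Incenp, corrects faulty attachments and later sits at the cleavage plane. All 4 of its genes fell with the inhibitor, as did 23.9% of all tested genes. Aurkb signals were 678, 721 and 740 with the ligand, 461, 399 and 372 with the inhibitor, and 720, 685 and 735 without treatment. Its ligand and untreated means were both 713, and the inhibitor mean was 57.6% of the untreated mean (log2 change -0.78 ± 0.08, adjusted p = 8.31e-06). Birc5, which encodes survivin, had signals of 1874, 1748 and 1702 with the ligand, 1252, 1195 and 1305 with the inhibitor, and 2163, 2563 and 2173 without treatment. It had no overlap between any of the 3 groups. It fell by 0.87 ± 0.08 with the inhibitor (adjusted p = 1.83e-06) and by 0.37 ± 0.08 with the ligand (adjusted p = 0.00426). Cdca8, which encodes borealin, fell by 0.71 with the inhibitor, and Incenp fell by 0.68. Neither was called with the ligand, at 0.04 and 0.11.

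All 5 spindle checkpoint genes fell with the inhibitor, with a median of -0.72, where 23.9% of all tested genes fell. None was called with the ligand, where 24% of all tested genes were called in either direction. Ttk, the Mps1 kinase that starts checkpoint signalling, had signals of 820, 774 and 788 with the ligand, 354, 363 and 362 with the inhibitor, and 674, 838 and 687 without treatment. Its inhibitor arrays lay close together, at 49.1% of the untreated mean (log2 change -0.99 ± 0.08, adjusted p = 1.18e-06). The difference of 1.11 ± 0.08 between ligand and inhibitor was the largest of the 39 (adjusted p = 1.8e-07). Bub1b, the BubR1 protein of the checkpoint complex, had signals of 747, 700 and 776 with the ligand, 334, 363 and 370 with the inhibitor, and 692, 660 and 687 without treatment. It fell by 0.91 ± 0.07 with the inhibitor (adjusted p = 7.49e-07), and ligand exceeded inhibitor by 1.03 ± 0.07 (adjusted p = 9.85e-08).

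Bub1, the kinase that recruits other checkpoint proteins to kinetochores, had signals of 1085, 1087 and 1148 with the ligand, 650, 683 and 713 with the inhibitor, and 1094, 1160 and 1146 without treatment. The ligand arrays overlapped the untreated ones and the inhibitor arrays stood below both (log2 change -0.72 ± 0.07, adjusted p = 1.98e-06). Bub3, its binding partner, had signals of 2792, 3144 and 3234 with the ligand, 1974, 2091 and 2165 with the inhibitor, and 2391, 2900 and 2891 without treatment. Its fall of 0.39 ± 0.09 with the inhibitor (adjusted p = 0.00276) was among the smaller ones. Averaged over all its probe sets Bub3 changed by -0.16, which was not called (adjusted p = 0.211). Mad2l1, which encodes the checkpoint protein Mad2, fell by 0.41 ± 0.09 (adjusted p = 0.00314). It differed between ligand and inhibitor by 0.29 (adjusted p = 0.0182), a call lost without ligand replicate 3, inhibitor replicate 1 or inhibitor replicate 3, at adjusted p-values of 0.0615, 0.0772 and 0.0563.

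**Figure D3:**
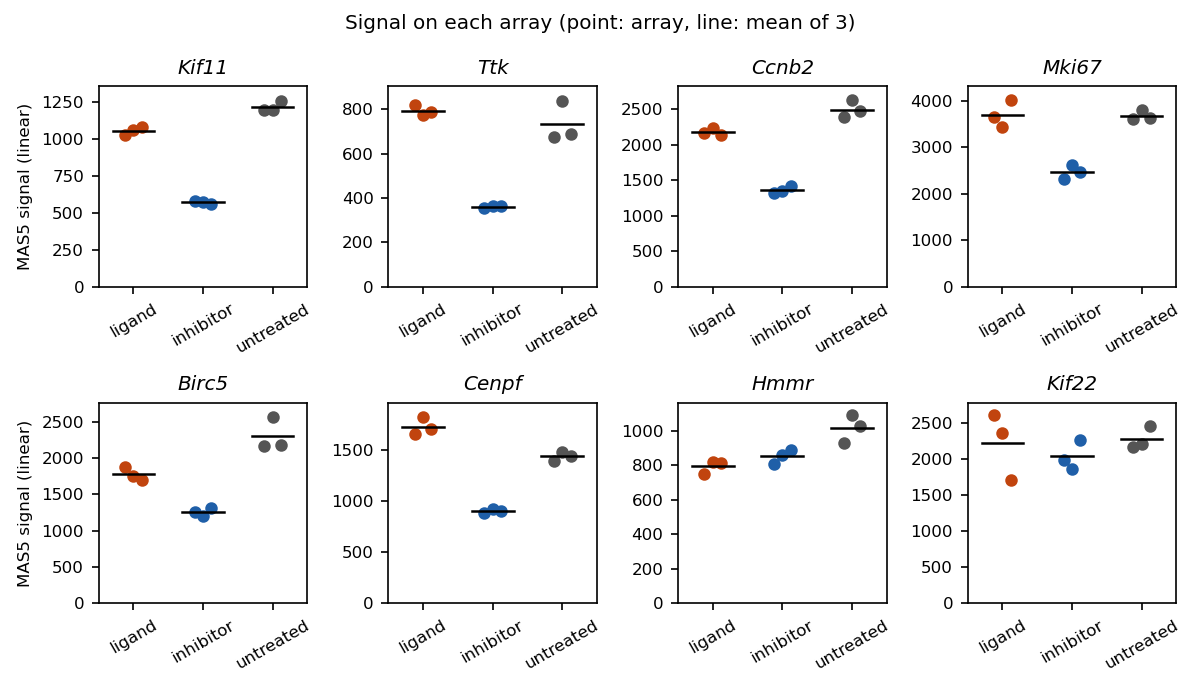
Signal per array (linear intensity, points) with the group mean (horizontal line) for genes described in the text, in ligand, inhibitor and untreated groups. Kif11 lies at 46.9% and Ttk at 49.1% of the untreated mean with the inhibitor, Birc5 is lower in both treated groups, and Kif22 overlaps in all 3.

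At the centromere and kinetochore, all 5 genes fell with the inhibitor, against 23.9% of all tested genes. Cenpa, the histone H3 variant that marks centromeres, had signals of 1484, 1623 and 1528 with the ligand, 1141, 1015 and 1268 with the inhibitor, and 1818, 1911 and 1751 without treatment. The 3 groups stood apart. Its fall was 0.68 ± 0.08 with the inhibitor (adjusted p = 2.14e-05) and its ligand change of -0.24 ± 0.08 was just called (adjusted p = 0.0491), a call lost in 13 of 21 alternatives, including the omission of any ligand or untreated array or of inhibitor replicate 1. Ndc80, which binds microtubule ends at the kinetochore, had signals of 186, 190 and 189 with the ligand, 81.8, 69.9 and 120 with the inhibitor, and 156, 144 and 142 without treatment. The order of its groups differed from that of Cenpa, with every ligand array above every untreated array. The ligand difference of 0.32 ± 0.15 was not called (adjusted p = 0.143), and the inhibitor change of -0.65 ± 0.15 was (adjusted p = 0.0032).

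Cenpf, a large kinetochore and nuclear matrix protein, had signals of 1650, 1822 and 1706 with the ligand, 885, 926 and 905 with the inhibitor, and 1389, 1476 and 1441 without treatment. It fell by 0.66 ± 0.06 with the inhibitor (adjusted p = 3.68e-06), and it alone rose with the ligand, by 0.26 ± 0.06 (adjusted p = 0.00961). That rise was not called when its probe sets were averaged (0.10, adjusted p = 0.524) or the arrays centred on their medians (0.15, adjusted p = 0.268). Cenpe, a kinesin that carries chromosomes to the spindle equator, had signals of 512, 568 and 315 with the ligand, 366, 354 and 331 with the inhibitor, and 595, 491 and 726 without treatment. Ligand replicate 3 lay among the inhibitor arrays. Ligand against inhibitor was not called for Cenpe (0.35, adjusted p = 0.116), and without that array it was (0.60, adjusted p = 0.00164). It was also called with the gene's 2 probe sets averaged (0.68, adjusted p = 4.58e-05), and the other set by itself gave 1.01 for ligand against inhibitor and 0.19 for ligand against untreated (adjusted p = 2.33e-06 and 0.221 over all probe sets). Nuf2, the partner of Ndc80, had signals of 840, 937 and 731 with the ligand, 434, 443 and 496 with the inhibitor, and 843, 904 and 910 without treatment. It reached 51.7% of the untreated mean with the inhibitor (log2 change -0.93 ± 0.09, adjusted p = 3.7e-06).

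Kif11, the kinesin Eg5 that pushes the spindle poles apart, had the largest fall with the inhibitor. Its signals were 1029, 1058 and 1081 with the ligand, 580, 575 and 557 with the inhibitor, and 1196, 1198 and 1258 without treatment. The inhibitor mean was 46.9% of the untreated mean (log2 change -1.07 ± 0.06, adjusted p = 4.8e-08). Its ligand arrays were all slightly below the untreated ones, by 0.20 ± 0.06 (adjusted p = 0.0317), a call lost in 10 of 21 alternatives, including the omission of any untreated array and of ligand replicate 1 or 2. Kif20a and Kif23, kinesins of the central spindle, fell by 0.91 and 0.65 with the inhibitor. Kif2c, which takes microtubules apart at centromeres, fell by 0.70, and Kif4, a motor of chromosome arms, by 0.67. None of these 4 was called with the ligand, where 24% of all tested genes were called in either direction. Their ligand changes ran from -0.17 for Kif4 to 0.06 for Kif2c.

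Kif22, which moves chromosome arms away from the poles, was the kinesin not called. Its signals were 2611, 2369 and 1707 with the ligand, 1994, 1866 and 2267 with the inhibitor, and 2174, 2206 and 2464 without treatment. The 3 groups overlapped (inhibitor -0.16 ± 0.13, adjusted p = 0.343; ligand -0.05, adjusted p = 0.811). The ID of this brightest probe set ends in _x_at, the suffix that Affymetrix gives to sets with probes that also match other sequences. The other 2 sets of the gene gave another picture. With p-values adjusted over all probe sets, the next brighter one changed by -1.31 ± 0.09 with the inhibitor (adjusted p = 3.59e-07), with means of 615 with the ligand, 278 with the inhibitor and 712 without treatment. The dimmest set changed by -1.02 ± 0.12 (adjusted p = 4.15e-05), with means of 267 with the ligand, 132 with the inhibitor and 282 without treatment. Whether transcripts of other genes add to the brightest set was not tested. The brightest sets of Aurkb, Incenp, Kif2c and Cdc20 also end in _x_at. The next brightest sets of these genes changed by -0.94, -0.40, -0.48 and -0.60 with the inhibitor, each called over all probe sets.

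Among the spindle assembly factors, all 4 fell with the inhibitor, with a median of -0.47, against 23.9% of all tested genes that fell. Tpx2, which activates Aurora A on the spindle, had signals of 589, 598 and 539 with the ligand, 393, 373 and 387 with the inhibitor, and 506, 619 and 603 without treatment. Its inhibitor arrays were below all others (log2 change -0.56 ± 0.09, adjusted p = 0.000161), and ligand and untreated means were 575 and 576. Hmmr, a hyaluronan receptor that also anchors spindle poles, had signals of 751, 822 and 817 with the ligand, 807, 861 and 891 with the inhibitor, and 932, 1093 and 1030 without treatment. It was lower in both treated groups, which overlapped each other. It fell by 0.35 ± 0.08 with the ligand (adjusted p = 0.00549) and by 0.25 ± 0.08 with the inhibitor (adjusted p = 0.0174). The inhibitor call was lost without inhibitor replicate 1 (adjusted p = 0.0738) or untreated replicate 2 (adjusted p = 0.0832), and under median centring (adjusted p = 0.116).

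Prc1, which bundles the microtubules of the central spindle, fell by 0.39 ± 0.08 with the inhibitor (adjusted p = 0.00156). Aspm, which focuses the spindle poles, fell by 0.62 ± 0.07 (adjusted p = 1.53e-05). With the ligand Prc1 changed by 0.02 and Aspm by 0.19, neither called (adjusted p = 0.907 and 0.0774). The ligand arrays of Aspm were all above the untreated ones, as in 24.2% of all tested genes.

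The anaphase genes fell together with the inhibitor by 0.63 to 0.68. Cdc20, the activator of the anaphase-promoting complex, had signals of 3877, 3323 and 3234 with the ligand, 2315, 2493 and 2796 with the inhibitor, and 3952, 3893 and 3945 without treatment. Inhibitor arrays lay below ligand arrays and these below untreated arrays (inhibitor -0.63 ± 0.09, adjusted p = 5.41e-05), but the ligand change of -0.18 was not called (adjusted p = 0.155). Ube2c, the ubiquitin-conjugating enzyme of that complex, had signals of 3924, 4325 and 4433 with the ligand, 2731, 3092 and 3184 with the inhibitor, and 4425, 5177 and 4869 without treatment. Its fall was 0.68 ± 0.09 with the inhibitor (adjusted p = 2.74e-05). Espl1, separase, had signals of 336, 318 and 506 with the ligand, 193, 234 and 171 with the inhibitor, and 334, 289 and 323 without treatment. Ligand replicate 3 was its highest array, and the ligand change of 0.25 ± 0.16 was not called (adjusted p = 0.276).

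Of the cytokinesis genes, Anln encodes anillin, a scaffold of the contractile ring, and Ect2 and Racgap1 act in RhoA signalling at the cell equator. Anln signals were 1146, 1153 and 1110 with the ligand, 838, 906 and 919 with the inhibitor, and 1220, 1323 and 1334 without treatment. The groups did not overlap, and the fall with the inhibitor was 0.53 ± 0.07 (adjusted p = 2.83e-05), while the ligand change of -0.18 was not called (adjusted p = 0.0662). Racgap1 fell by 0.84 ± 0.08 with the inhibitor (adjusted p = 2.78e-06). Ect2 signals were 2677, 2913 and 1974 with the ligand, 1344, 1395 and 1444 with the inhibitor, and 2158, 2311 and 2274 without treatment. It fell by 0.68 ± 0.11 with the inhibitor (adjusted p = 0.000262). Its ligand replicate 3 lay below the untreated arrays and the other two above them. Without that array Ect2 was called higher with the ligand (0.31, adjusted p = 0.00483).

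Most genes were read by more than 1 probe set, which gave a further view of the same RNA. The 39 genes had 93 probe sets, of which 86 passed the filter. With p-values adjusted over all probe sets, 65 of the 86 were called lower with the inhibitor and none higher, where 20.1% of all 28653 probe sets tested were called lower and 15% higher. The 47 sets that had not been used to represent their gene, from 25 genes, gave 28 lower and 19 not called. In ligand against untreated 6 of the 86 were called lower and 1 higher, against 5.92% and 9.73% of all probe sets. In ligand against inhibitor 63 were higher and 1 was lower, against 29.4% and 17.9% of all probe sets. The lower one was the dimmest Nek2 set (-0.55, adjusted p = 0.00966). The other sets of Nek2 were higher with the ligand than with the inhibitor, by 0.55, 0.42 and 0.93. The Hmmr sets also differed, since its set with the lowest inhibitor mean changed by -0.53 ± 0.13 with the inhibitor (adjusted p = 0.00791) and by -0.03 with the ligand.

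**Figure D4:**
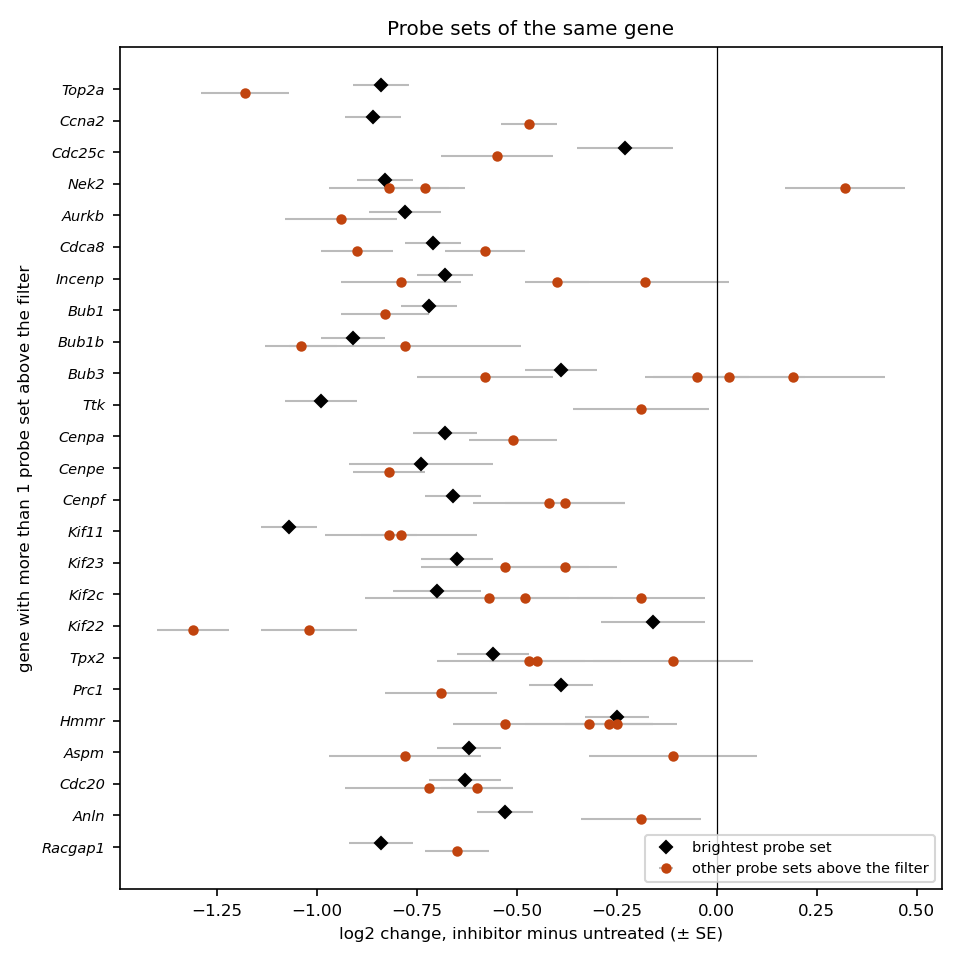
Log2 change, inhibitor against untreated, of each probe set above the filter for genes with several sets, with the brightest set of a gene marked apart from the others. Bars are standard errors. Most sets lie below 0, and the brightest Kif22 set, at -0.16, lies well above the other Kif22 sets at -1.02 and -1.31.

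A wider list of 100 other genes with roles in mitosis, of which 97 were tested, moved the same way with the inhibitor but less evenly. Of the 97, 70 were called lower and 5 higher (72.2% and 5.15%, against 23.9% and 21% of all genes), with a median of -0.56. With the ligand 3 were called lower and 5 higher (3.09% and 5.15%, against 9.28% and 14.7%), with a median of 0.04. Ligand exceeded inhibitor in 73 and was lower in 5 (75.3% and 5.15%, against 32.4% and 22.9%), with a median of 0.58. The largest falls with the inhibitor were those of the kinetochore genes Cenpp (-1.45, adjusted p = 2.33e-07), Spc24 (-1.14, adjusted p = 5.6e-07) and Cenpk (-1.09, adjusted p = 0.000193). Cenpp signals were 986, 1056 and 851 with the ligand, 340, 290 and 332 with the inhibitor, and 797, 1000 and 915 without treatment, so its inhibitor arrays lay far below the rest.

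The 5 genes of that list that rose with the inhibitor were Zw10, Zwint, Ensa, Psrc1 and Kif3a, by 0.47, 0.43, 0.37, 0.37 and 0.36. Zw10 and Zwint encode linked kinetochore proteins, Zw10 also has a role in vesicle traffic, and Kif3a is a motor of cilia and transport. Zwint signals were 983, 1089 and 1270 with the ligand, 1978, 1893 and 1674 with the inhibitor, and 1345, 1366 and 1394 without treatment. Its groups did not overlap, and it rose by 0.43 with the inhibitor (adjusted p = 0.0019) and fell by 0.30 with the ligand (adjusted p = 0.0293). The other falls with the ligand were Lin54 (-0.40, adjusted p = 0.00563) and Cdca3 (-0.25, adjusted p = 0.0134). The rises with the ligand were Cenpn, Cenpm, Numa1, Ska2 and Cit, by 0.37, 0.36, 0.36, 0.34 and 0.33.

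The regulators Mybl2 and Foxm1 of late cell cycle transcription differed in their calls. Mybl2, B-Myb, which joins the MuvB complex on these promoters, had signals of 252, 272 and 250 with the ligand, 130, 118 and 139 with the inhibitor, and 247, 211 and 227 without treatment. It fell by 0.75 ± 0.10 with the inhibitor (adjusted p = 5.05e-05) and was not called with the ligand (0.17, adjusted p = 0.27). Foxm1, a forkhead factor of the same genes, had signals of 134, 185 and 162 with the ligand, 161, 133 and 155 with the inhibitor, and 155, 209 and 211 without treatment. Its groups overlapped and its inhibitor change of -0.32 ± 0.14 was not called (adjusted p = 0.0879).

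The DNA replication genes, which act one phase earlier, were compared as a list of 45, of which 43 were tested. With the inhibitor 41 fell and none rose, with a median of -0.86, and only Pcna (-0.26, adjusted p = 0.0978) and Fen1 (0.16) of this list were not called. With the ligand 17 rose and 1 fell, with a median of 0.20, where the members had 1 rise and 8 falls. The falls with the inhibitor were 95.3% of the list, against 23.9% of all tested genes. The rises with the ligand were 39.5%, against 14.7%. Mcm2, a subunit of the replicative helicase, had signals of 1291, 1251 and 1235 with the ligand, 463, 477 and 465 with the inhibitor, and 861, 934 and 947 without treatment. The 3 groups were separate, with changes of 0.46 ± 0.07 with the ligand (adjusted p = 0.000255) and -0.94 ± 0.07 with the inhibitor (adjusted p = 2.21e-07). Rrm2, a ribonucleotide reductase subunit, was the gene of this list that fell with the ligand (-0.28, adjusted p = 0.0139). The difference between the replication and mitosis lists was not tested.

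Regulators of the G1 phase were mixed. Of 21 tested, 8 fell and 4 rose with the inhibitor, and 2 fell and 5 rose with the ligand, with medians of -0.27 and 0.04. The shares with the inhibitor were 38.1% and 19%, against 23.9% and 21% of all tested genes. With the ligand they were 9.52% and 23.8%, against 9.28% and 14.7%. Ccnd1, cyclin D1, had signals of 2335, 2250 and 2242 with the ligand, 538, 493 and 543 with the inhibitor, and 1651, 1658 and 1655 without treatment. It fell by 1.63 ± 0.06 with the inhibitor and rose by 0.46 ± 0.06 with the ligand (adjusted p = 3.2e-09 and 0.000184). A further list of 16 tested genes held subunits of the anaphase-promoting complex, tubulins, the ubiquitin-conjugating enzyme Ube2s and the microtubule-destabilising protein Stmn1. Of these 5 fell and 2 rose with the inhibitor, with a median of -0.12, and 2 rose with the ligand. The shares were 31.2% and 12.5% with the inhibitor, near those of all tested genes. The 12.5% that rose with the ligand stood against 14.7%. Stmn1, which is neither a subunit of the complex nor a tubulin, had the largest fall of the list with the inhibitor (-0.89, adjusted p = 4.27e-06) and was among the 2 that rose with the ligand (0.33, adjusted p = 0.0149).

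**Figure D5:**
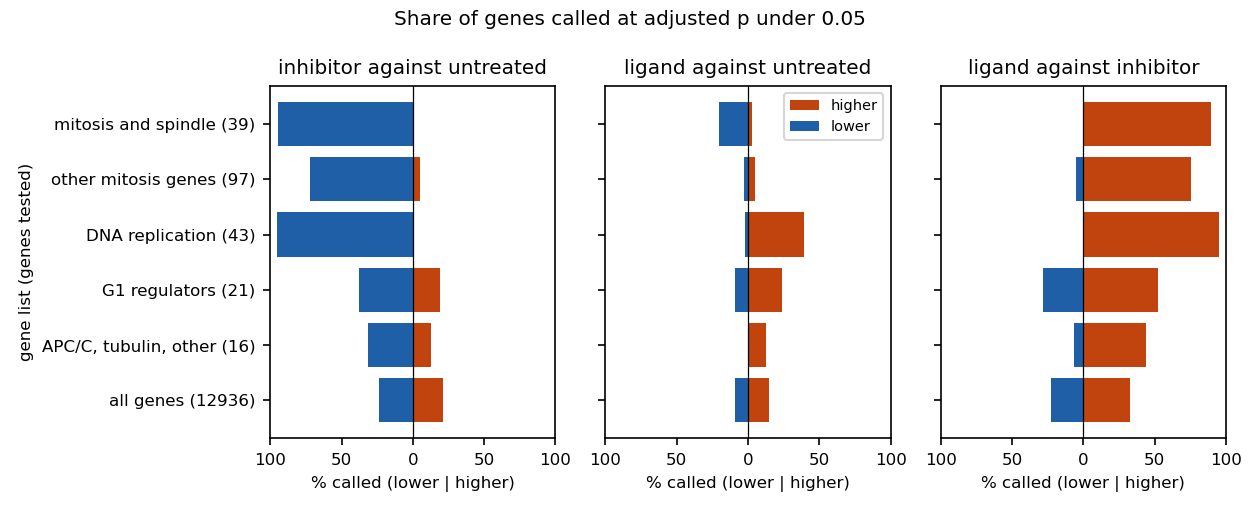
Share of tested genes called lower and higher (percent) in each list and among all 12936 tested genes, with a panel for each comparison. With the inhibitor against untreated the mitosis and spindle genes and the DNA replication genes are nearly all lower, against 23.9% of all genes. With the ligand against untreated the DNA replication list has more genes higher than lower, at 17 and 1 of 43.

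Markers of other cell types moved in the same comparisons. Of all tested genes 23.9% fell and 21% rose with the inhibitor, and 9.28% fell and 14.7% rose with the ligand. Among 10 intestinal stem cell markers, 9 fell and 1 rose with the inhibitor, and 7 rose with the ligand. Their summed signal was 42197 to 51113 with the ligand, 12917 to 14422 with the inhibitor and 32783 to 37306 without treatment. The sum was carried by Olfm4, with means of 14648 with the ligand, 819 with the inhibitor and 12861 without treatment, and by Slc12a2, with means of 15444 with the ligand, 7207 with the inhibitor and 12467 without treatment. The list's median change was -0.81 with the inhibitor and 0.99 with the ligand. Of 12 enterocyte markers 7 rose with the inhibitor, while 6 fell and 1 rose with the ligand. Their sum was 57352 to 63893 with the ligand, 82686 to 101702 with the inhibitor and 73740 to 81845 without treatment. The part that these cell types had in the changes of the mitosis genes was not tested. The sum of 7 general epithelial markers was 61543 to 70520 with the ligand and 60763 to 70219 with the inhibitor. Without treatment it was 59687 to 63531, and all 7 were above the filter. Single markers did change. Vil1 rose by 0.51 (adjusted p = 7.42e-05) and Cdx2 fell by 0.22 (adjusted p = 0.0337) with the inhibitor. Krt18 rose by 0.35 with the ligand (adjusted p = 0.0268). These were the only calls of the 7 against untreated arrays. Fibroblast markers were dim, with 7 of 8 at or below 100 on every array, and summed to 351 to 418 with the ligand, 204 to 274 with the inhibitor and 319 to 342 without treatment. The brighter one was Vim, with means of 243 with the ligand, 86.8 with the inhibitor and 205 without treatment. Col1a2 and Pdgfra, the other fibroblast markers tested, changed by 0.03 and 0.42 with the inhibitor, neither called (adjusted p = 0.911 and 0.234). Of 7 leukocyte markers 5 were at or below 100, and the sum was 1514 to 2317 with the ligand, 922 to 1026 with the inhibitor and 1287 to 1480 without treatment. Lyz2, a lysozyme gene, made up most of it and fell by 0.69 with the inhibitor (adjusted p = 0.00127). Cd68 went the other way, with means of 112 with the inhibitor and 64.4 without treatment (log2 change 0.66, adjusted p = 0.00265). Adgre1, the other leukocyte marker tested, was not called (0.03, adjusted p = 0.9). With the ligand Lyz2 rose by 0.41 (adjusted p = 0.0495) and Cd68 was not called (-0.07, adjusted p = 0.772). All 5 endothelial markers were at or below 100, with sums of 68.9 to 94.8 with the ligand, 74.3 to 113 with the inhibitor and 83.7 to 97 without treatment.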

How the data were processed

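RNA from 9 samples of mouse intestinal organoids was extracted with a miRNeasy kit, then amplified and biotin-labelled with MessageAmp Premier, per the labels' protocols. Per the submitters' processing notes, MAS5 made the signals, with no version stated. The values deposited by the authors are intensities on a linear scale, 1 per probe set and array. Their trimmed mean was the same on every array, which removes any difference in total RNA. Probe sets numbered 45101, of which 34958 carried 1 gene symbol, 932 several and 9211 none in the platform annotation. Only the first kind was used to stand for genes. The fit over all 28653 probe sets above the filter also held sets with several symbols or none.

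Signals became log2(signal + 16), and 28.9% of values were no higher than 16. The probe set with the highest mean signal over all 9 arrays stood for its gene. The gene was kept where that set lay above the array's 40th percentile (25.9 to 32) on at least 3 arrays. limma 3.58.1 in R 4.3.3 fitted 1 mean per group over all 9 arrays, with an intensity trend in the empirical Bayes variance. Tests were 2-sided, with Benjamini-Hochberg adjusted p-values under 0.05 called. The script was tested on simulated data.

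The members and lists were chosen with earlier results of these data known. All members were named. Values per array were given for 1 or 2 leading genes of each role, the 3 largest rises and falls of each comparison, and members not called with the inhibitor, with some further genes chosen after their values were seen. Of the other mitosis genes, the 3 largest called changes each way and Foxm1 and Mybl2 were to be named, and the remaining rises with the inhibitor or the ligand were added after their values were seen. Only 3 arrays per group limit the precision. Offsets, filters, scalings, probe set choices, model choices and leaving out arrays were tried as alternatives.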

Additional observations from a re-analysis of the deposited data

How the results depend on the processing

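Of the 37 falls with the inhibitor, 35 held under all 21 alternatives, as did 32 of 35 differences between ligand and inhibitor and 2 of 9 calls with the ligand. Ligand and inhibitor no longer differed in call under median centring for Prc1 (0.25, adjusted p = 0.0562), Anln (0.2, adjusted p = 0.086) and Mad2l1 (0.14, adjusted p = 0.372). No called member reversed. The causes were not tested. Testing all 28653 probe sets called 10060 for inhibitor against untreated, where 5810 of 12936 genes were called. For ligand against inhibitor it called 13544 of the probe sets, where 7152 of the genes were called. These counts have different totals. Counts of members lower with the ligand, 8 as reported, were 11 under median centring, where Cenpe, Kif4 and Anln were added, 5 with no intensity trend, 5 in the 2-group fit, 4 with all probe sets, and 3 to 6 when arrays were left out. With the replicate number as a block the count was also 4. Deviations of same-numbered arrays from their group means correlated at -0.08 to 0.08. Whether same-numbered arrays shared a culture or a batch cannot be told from these values or from the labels. Counts higher with the ligand were 2 under quantile normalization, 2 in the 2-group fit, 0 under median centring, 0 with probe sets averaged, and 1 to 2 without single arrays. Quantile normalization and median centring each gave 1 member lower with the ligand than with the inhibitor. Without single arrays that count was 0. The median of ligand against inhibitor was 0.48 under median centring and 0.55 with probe sets averaged, and that of ligand against untreated was -0.12 under median centring.

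Uncalled estimates changed sign as follows. In ligand against untreated, quantile normalization gave -0.03 for Kif20a and Tpx2. Median centring gave -0.11 for Mki67 and Tpx2, 0 for Top2a, -0.07 for Plk1 and Cdca8, -0.01 for Incenp, -0.1 for Kif20a and Prc1, -0.06 for Kif2c and -0.02 for Racgap1. Averaged probe sets gave -0.09 for Cdca8, 0.09 for Bub1, -0.29 for Bub1b, -0.14 for Prc1, -0.06 for Aspm, 0.01 for Anln and -0.04 for Racgap1. Without single arrays the ranges were -0.03 to 0.03 for Aurkb, -0.07 to 0.08 for Kif20a, -0.18 to 0.13 for Kif22, -0.06 to 0.03 for Kif23, -0.03 to 0.16 for Kif2c, -0.06 to 0.06 for Mki67, -0.17 to 0 for Nuf2, -0.02 to 0.08 for Plk1, -0.05 to 0.07 for Prc1 and -0.09 to 0.05 for Tpx2. In ligand against inhibitor, Kif22 was -0.05 under median centring and -0.02 to 0.29 without single arrays. Averaged probe sets gave 0.05 for Cdc25c and 0.06 for Hmmr there. For Kif22 they gave -0.83 with the inhibitor (adjusted p = 1.28e-06), and passing over sets ending in _x_at gave -1.31 (adjusted p = 9.75e-08). Without ligand replicate 3, Kif22 was called between ligand and inhibitor (0.29, adjusted p = 0.0153). Of the members' 93 probe sets, 7 were under the filter on dim signals and gave no test.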
